A study of Mus musculus with 16 samples.

Results

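The 8 genes described here encode the nuclear receptor PPARalpha (Ppara) and 7 proteins of fatty acid use, namely Cpt1a, Acadm, Ehhadh, Pdk4, Cyp4a10, Cyp4a14 and Acot1. They were found by their symbols among the 57186 genes of the kidney count table, and all 8 were among the 25408 genes with at least 100 counts over the 16 libraries, the genes that were tested. RNA came from the kidneys of 16 male mice of the Elmo1H/H genotype on a C57BL/6J background, which overexpress Elmo1, so the controls carried that allele too. Non-diabetic mice were Elmo1H/HIns2+/+, and diabetic mice were Elmo1H/HIns2Akita/+, whose insulin gene variant gives a misfolded product and early, lasting hyperglycemia. Mice of both genotypes drank either water alone or vitamin B12 at 10 mg/kg per day from 8 weeks of age, for 16 weeks by the labels and for 8 weeks by the study's methods, which place the harvest at 16 weeks of age after a fast of a few hours. The 4 labelled groups of 4 mice are non-diabetic control (ND_C), non-diabetic with B12 (ND_B12), diabetic control (D_C) and diabetic with B12 (D_B12).

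PPARalpha is a ligand-activated transcription factor that pairs with RXR and binds direct repeats of a short half-site. Fatty acids and fibrates activate it, and in liver and in the proximal tubule of the kidney it is known for raising the genes that take up, activate and burn fatty acids during fasting. Its classical targets run from the carnitine shuttle and the mitochondrial and peroxisomal oxidation spirals to the Cyp4a omega-hydroxylases and the making of ketone bodies. None of the 8 genes encodes an enzyme of ketone body synthesis itself, and genes of ketone body metabolism are given as a list after them.

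Estimated counts totalled between 65271308 and 91771136 per library, and the D_C totals all lay above the ND_C totals. The group means that the study tabulated for 183 other genes matched other sets of 4 libraries than the labels give: 5 libraries fell in the same group by both and 11 did not. For 2 of them, ND_B12 4 and D_C 1, the diabetes status differed as well, and the 2 diabetic groups were all but exchanged: the tabulated D_C means matched the 4 libraries labelled D_B12, and the tabulated D_B12 means matched D_C 2, D_C 3, D_C 4 and ND_B12 4. All groups and directions below are those of the labels, and no group was rebuilt from the values. The non-diabetic groups were mixed too. The tabulated ND_C means matched ND_C 1, ND_C 2, ND_C 4 and ND_B12 1. The tabulated ND_B12 means matched ND_C 3, ND_B12 2, ND_B12 3 and D_C 1. Every difference, order or lack of overlap between groups therefore rests on the labels being right. This holds for B12 in non-diabetic kidneys as well as for the sign of every difference between D_C and D_B12. Leaving out ND_B12 4 and D_C 1 touches 2 of the 11 libraries in doubt, and values without ND_B12 4 and D_C 1 are given where they change a call. All 12 proximal tubule markers were expressed, with summed normalized counts between 1105196 and 1401705 per library. Summed adipocyte markers ranged from 60.6 to 12462 in ND_C, from 62.2 to 3130 in ND_B12, from 30.1 to 8710 in D_C and from 25.5 to 13639 in D_B12, with ND_C 3, D_C 1 and D_B12 2 highest and Adipoq at 0 in some libraries. In whole-kidney RNA, fewer cells of a type and less RNA per cell cannot be told apart.

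The 8 genes lie on 7 chromosomes of the GRCm39 build. Ppara spans chromosome 15 from 85618656 to 85687067 on the plus strand and overlaps Cdpf1 on the opposite strand. Cpt1a spans chromosome 19 from 3371853 to 3437996, Acot1 chromosome 12 from 84056256 to 84065145, and Cyp4a10 chromosome 4 from 115375461 to 115390849, all on the plus strand. Cyp4a14 precedes Cyp4a10 on the minus strand, from 115343397 to 115353344. Acadm (chromosome 3, 153627989 to 153650317), Ehhadh (chromosome 16, 21580036 to 21606563) and Pdk4 (chromosome 6, 5483097 to 5496339) are on the minus strand. Predicted genes overlap Cpt1a, Ehhadh and Cyp4a14 on the opposite strand, and whether the counting used strand is not stated in the sources used here, so these genes and Ppara may hold reads of their partners. Cyp4a10 has near-identical neighbours in Cyp4a31 and Cyp4a32, and Acot1 in Acot2, between which reads could be split.

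Upstream sequences were read from RefSeq tables of the GRCm38.p6 build, which matched 6 of the 8 genes and not Cyp4a10 and Cyp4a14. Those of Ppara and Cpt1a are shown because these 2 genes varied together over the libraries, and that of Acot1 because it varied with the Cyp4a genes and not with Ppara. Each gives the 250 bases before the transcription start, 5′ to 3′, in lower case, with the PPAR half-site AGGTCA or its reverse complement in capitals:
Ppara, chr15:85735526-85735775, plus strand: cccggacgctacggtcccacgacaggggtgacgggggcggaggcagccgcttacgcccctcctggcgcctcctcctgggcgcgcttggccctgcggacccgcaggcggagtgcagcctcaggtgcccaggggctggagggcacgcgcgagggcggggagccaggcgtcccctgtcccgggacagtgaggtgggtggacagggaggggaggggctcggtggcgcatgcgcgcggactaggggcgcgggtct
Cpt1a, chr19:3323051-3323300, plus strand: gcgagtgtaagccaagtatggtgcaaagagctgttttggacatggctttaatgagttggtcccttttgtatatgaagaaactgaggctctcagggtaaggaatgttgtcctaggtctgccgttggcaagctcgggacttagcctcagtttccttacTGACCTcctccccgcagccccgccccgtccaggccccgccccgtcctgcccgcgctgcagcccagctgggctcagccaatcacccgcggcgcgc
Acot1, chr12:84009252-84009501, plus strand: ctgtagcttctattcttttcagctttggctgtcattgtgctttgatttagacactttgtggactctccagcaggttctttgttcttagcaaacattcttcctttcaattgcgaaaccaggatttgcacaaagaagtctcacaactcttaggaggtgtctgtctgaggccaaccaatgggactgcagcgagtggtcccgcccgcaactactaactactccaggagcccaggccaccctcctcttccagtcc
Cpt1a held 1 half-site, with its first base 94 bases before the start, and Ppara and Acot1 held none. The half-site was found in 14% of all 32851 upstream windows of that length, and among the other members in Acadm (1 match, 249 bases before the start) but not in Ehhadh or Pdk4. The direct repeat of that half-site spaced by 1 base (0.0335% of windows), the D-box TTATGTAA of the PAR bZIP factors (0.819%) and the E-box CACGTG (6.02%), all searched on both strands, had no match in any of the 6 windows.

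Per kilobase of transcript, Acadm was the most abundant of the 8, with a median of 23700 normalized counts per kilobase over the 16 libraries. It was followed by Ehhadh (14420), Cyp4a10 (12590) and Cpt1a (6860), and then by Cyp4a14 (2388), Ppara (2207), Acot1 (1998) and Pdk4 (1151). The order is one of levels, and for Cyp4a14 it depends on the library, since its values ran from 403.4 to 15920. One transcript held nearly all of the counts of 5 genes, with 98.6% for Acadm, 98.9% for Cpt1a, 99.9% for Pdk4 and for Cyp4a14, and 100% for Ehhadh, whereas the main transcript of Ppara (3551 bases) held 91.9% and that of Acot1 95.1%. The 2 Cyp4a10 transcripts differ by few bases in length (2079 and 2109), and in ND_B12 3 all of its counts went to one of them, which in the other libraries had as little as 16.4%, so that their split was not read further.

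**Figure D1:**
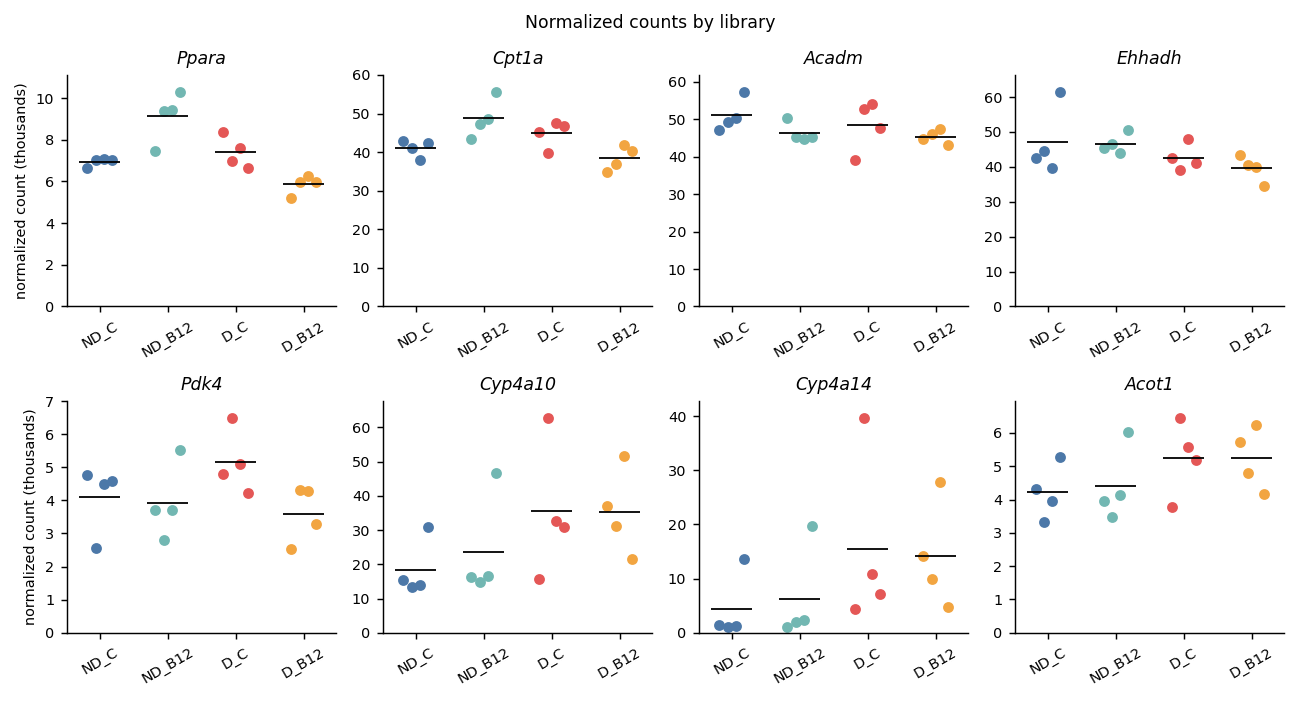
Normalized counts (linear axis from 0) of the 8 genes in each of 16 kidney libraries, grouped by label; each point is 1 library and each bar the mean of 4. The D_B12 points of Ppara lie below those of the other 3 groups, and ND_C 4 and ND_B12 4 stand high in their groups for Cyp4a10 and Cyp4a14.

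By the labels, Ppara was highest on average in non-diabetic kidneys with B12 and lowest in diabetic kidneys with B12, whose 4 libraries are those that matched the study's untreated diabetic means. Its normalized counts (counts divided by the library's size factor) were 6663, 7029, 7087 and 7056 in ND_C and 7451, 9374, 9452 and 10312 in ND_B12. They were 8392, 6975, 7617 and 6641 in D_C and 5218, 5967, 6249 and 5993 in D_B12. Each D_B12 library lay below each of the 12 others, and each ND_B12 library above each ND_C library, while D_C overlapped ND_C and ND_B12. The share of all tested genes with a group below the 12 other libraries was not counted. By pairs, 11.7% of all tested genes had no overlap between D_B12 and ND_B12, 6.58% between D_B12 and D_C and 4.81% between ND_B12 and ND_C. The means ± SD (n = 4) were 6959 ± 199, 9148 ± 1210, 7406 ± 772 and 5857 ± 444. Between the B12-treated groups Ppara was 0.639 times as high in diabetic kidneys, or −0.65 on the log2 scale (SE 0.0931, 95% interval −0.84 to −0.45, edgeR adjusted p = 0.0169). Between untreated groups it differed by 0.09 (SE 0.0927, adjusted p = 0.668). B12 against control gave 0.40 in non-diabetic kidneys (SE 0.0928, adjusted p = 0.57) and −0.34 in diabetic kidneys (SE 0.0928, adjusted p = 0.138), and neither passed the threshold of 0.05. The difference between these 2 effects was −0.74 (SE 0.131, 95% interval −1.02 to −0.46), with an edgeR adjusted p of 0.0554. The call in B12-treated kidneys was lost when ND_B12 2, ND_B12 3, D_B12 1, D_B12 2 or D_B12 3 was left out, with edgeR adjusted p-values between 0.0518 and 0.0772. In that order these omissions left 0, 1, 0, 0 and 0 of all tested genes called, beside 209 with all 16 libraries. Log2 fold changes of Ppara lay between −0.58 and −0.73 over all 16 omissions. Without ND_B12 4 and D_C 1 its log2 fold change was smaller, at −0.58 (edgeR adjusted p = 0.00383), and 695 of all 24831 tested genes were called. Without the 3 libraries richest in adipocyte markers it was −0.64 (adjusted p = 0.0411), and 27 of 24515 genes were called.

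Cpt1a, the outer-membrane carnitine palmitoyltransferase through which long-chain fatty acids enter mitochondria, had the same order of groups at smaller differences. Its normalized counts were 42955, 41157, 37898 and 42258 in ND_C, 43463, 47263, 48718 and 55667 in ND_B12, 45119, 39745, 47592 and 46899 in D_C, and 34889, 36929, 41947 and 40401 in D_B12. ND_B12 lay above ND_C and above D_B12 without overlap, and the other pairs of groups overlapped. The means ± SD (n = 4) were 41067 ± 2240, 48778 ± 5100, 44839 ± 3550 and 38541 ± 3210. The log2 fold change between B12-treated groups was −0.34 (SE 0.0843, 95% interval −0.52 to −0.16, edgeR adjusted p = 0.0626). B12 gave 0.25 in non-diabetic kidneys (SE 0.0842, adjusted p = 0.585) and −0.22 in diabetic kidneys (SE 0.0842, adjusted p = 0.267), with an interaction of −0.47 (SE 0.119, adjusted p = 0.0872). No comparison of Cpt1a passed in edgeR without a covariate on all 16 libraries. In DESeq2 the difference between B12-treated groups did (adjusted p = 0.00614), as did the interaction (adjusted p = 0.00994).

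Cyp4a14 and Cyp4a10, fatty acid omega-hydroxylases and among the most inducible PPARalpha targets in rodents, varied far more between mice of one group than between groups. Cyp4a14 had 1437, 1005, 1196 and 13687 normalized counts in ND_C and 1106, 1906, 2281 and 19707 in ND_B12. It had 4394, 39676, 10861 and 7070 in D_C and 14228, 9866, 27771 and 4832 in D_B12. The highest library of each group was ND_C 4, ND_B12 4, D_C 2 and D_B12 3, and the highest library of all (D_C 2) held 39.5 times the count of the lowest (ND_C 2). The ranges of the 4 groups overlapped. Diabetic against non-diabetic kidneys gave a log2 difference of 1.83 without B12 (SE 1.03, 95% interval −0.36 to 4.02, edgeR adjusted p = 0.362) and 1.18 in B12-treated kidneys (SE 1.01, 95% interval −0.97 to 3.32, adjusted p = 0.595). B12 against control gave 0.53 in non-diabetic (SE 1.01) and −0.12 in diabetic kidneys (SE 0.998), with adjusted p-values of 0.941 and 0.975. These differences rested on single libraries. The untreated diabetes difference was 0.77 without D_C 2 and 3.68 without ND_C 4, and that of B12 in non-diabetic kidneys was −1.30 without ND_B12 4 and 2.38 without ND_C 4.

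Cyp4a10 showed the same libraries high at a smaller range. Its normalized counts were 15310, 13489, 13829 and 30836 in ND_C, 16406, 14924, 16513 and 46551 in ND_B12, 15634, 62755, 32606 and 30973 in D_C, and 37022, 31263, 51677 and 21660 in D_B12. The order of the libraries was close to that of Cyp4a14, and the highest was 4.65 times the lowest. Diabetic against non-diabetic kidneys gave 0.95 on the log2 scale without B12 (SE 0.438, 95% interval 0.02 to 1.88, unadjusted p = 0.0456, edgeR adjusted p = 0.257) and 0.58 in B12-treated kidneys (SE 0.435, adjusted p = 0.53). D_C 1 (15634) was the lowest D_C library and ND_B12 4 (46551) the highest ND_B12 library, so leaving them out raises both diabetes differences of Cyp4a10. Without ND_B12 4 and D_C 1 the untreated difference was 1.20 (SE 0.328) and passed the test (edgeR adjusted p = 0.0378), and the difference between B12-treated groups was 1.15 (SE 0.34, adjusted p = 0.0889). That fit called 2127 of 24831 genes between untreated groups, beside 423 of 25408 with all 16 libraries. With all 16 libraries the 2 B12 differences of Cyp4a10 were 0.37 (SE 0.435) and 0.00 (SE 0.434, 95% interval −0.92 to 0.92).

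Acot1, the cytosolic thioesterase that frees fatty acids from acyl-CoA, ran from 3313 to 6449 normalized counts. It had 4310, 3313, 3962 and 5280 in ND_C, 3971, 3476, 4144 and 6030 in ND_B12, 3777, 6449, 5575 and 5184 in D_C, and 5727, 4799, 6249 and 4181 in D_B12. The highest library of each group was again ND_C 4, ND_B12 4, D_C 2 and D_B12 3. Diabetic exceeded non-diabetic means by 0.31 on the log2 scale without B12 (SE 0.191, edgeR adjusted p = 0.406) and 0.25 in B12-treated kidneys (SE 0.191, adjusted p = 0.545). The B12 differences were 0.07 (95% interval −0.34 to 0.47) and 0.00 (95% interval −0.40 to 0.41).

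The oxidation enzymes Acadm and Ehhadh passed no comparison. Acadm, the medium-chain acyl-CoA dehydrogenase, had 47262, 49180, 50344 and 57401 normalized counts in ND_C, 50319, 45354, 44780 and 45347 in ND_B12, 39116, 52697, 54093 and 47709 in D_C, and 44710, 46155, 47329 and 43283 in D_B12. Neighbouring groups overlapped, and its 4 log2 fold changes lay between −0.13 and −0.04 with SEs of 0.0908 and edgeR adjusted p-values of 0.717 to 0.882. Ehhadh, the bifunctional enzyme of the peroxisomal spiral, had 42648, 44620, 39661 and 61541 in ND_C, 45485, 46413, 44072 and 50549 in ND_B12, 42620, 39045, 47986 and 41039 in D_C, and 43534, 40426, 39919 and 34457 in D_B12. Its D_B12 values all lay below its ND_B12 values, by −0.24 on the log2 scale (SE 0.118, 95% interval −0.49 to 0.01, edgeR adjusted p = 0.318). The other 3 differences of Ehhadh were between −0.14 and −0.01.

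Pdk4 encodes the kinase that switches off pyruvate dehydrogenase when fat is the fuel. Its normalized counts were 4764, 2560, 4479 and 4592 in ND_C, 3697, 2816, 3711 and 5505 in ND_B12, 4797, 6486, 5106 and 4209 in D_C, and 2531, 4304, 4283 and 3271 in D_B12. It was highest on average in D_C (5150 ± 966) and lowest in D_B12 (3597 ± 859), and the ranges of those groups met between 4209 and 4304. B12 in diabetic kidneys gave −0.52 on the log2 scale (SE 0.226, 95% interval −0.995 to −0.036, unadjusted p = 0.0367, edgeR adjusted p = 0.328). Diabetes gave 0.33 in untreated (SE 0.226, adjusted p = 0.471) and −0.13 in B12-treated kidneys (SE 0.226, adjusted p = 0.817).

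**Figure D2:**
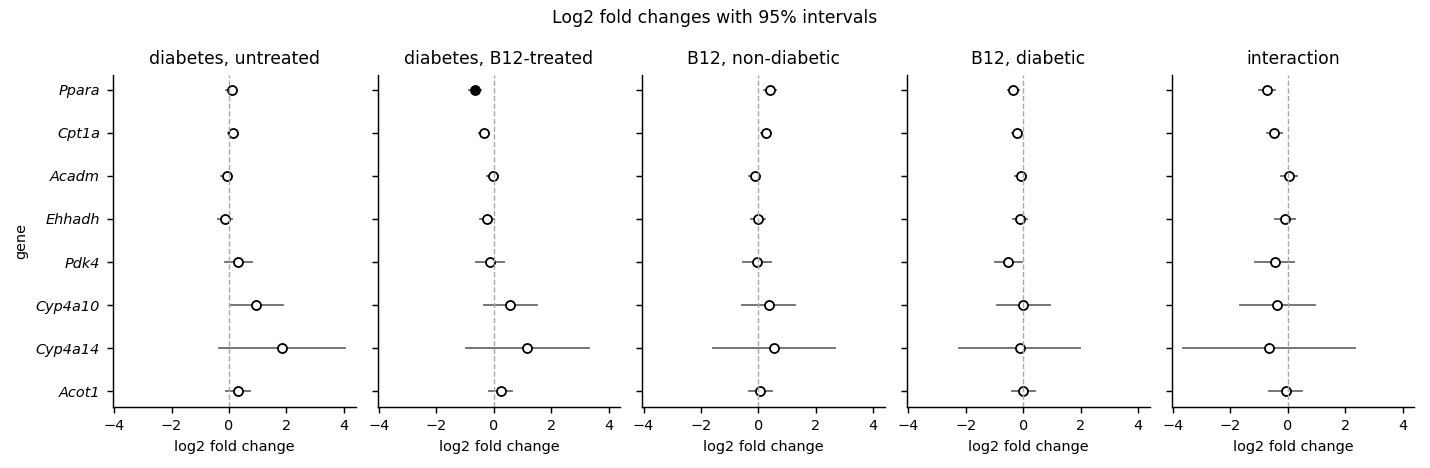
Log2 fold changes of the 8 genes (points) with 95% intervals (lines) in the 4 comparisons and the interaction, from edgeR fitted on all 16 libraries; a filled point marks an adjusted p below 0.05. Ppara between B12-treated groups is the single filled point, and the intervals of Cyp4a14 are wider than those of the other 7 genes.

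The counts of calls were read against all tested genes. For diabetes in untreated kidneys 0 of the 8 genes passed edgeR's adjusted threshold of 0.05, where 423 of all genes did (1.66%). At an unadjusted p below 0.05 it was 1 of 8 (Cyp4a10; 18.6% of all genes), and the same gene alone passed the added rule of a log2 fold change of at least 0.5 (7.64%). By DESeq2 it was 0 of 8 (6.31%), and 0 of 8 had groups without overlap (9.44%). For diabetes in B12-treated kidneys 1 of 8, Ppara, passed edgeR's adjusted threshold (0.823% of all genes). The unadjusted threshold was passed by Ppara and Cpt1a (17%), the unadjusted threshold with the fold rule by Ppara (7.47%) and DESeq2's adjusted threshold by Ppara and Cpt1a (4.51%), and 3 of 8 had groups without overlap, Ppara, Cpt1a and Ehhadh, all lower in D_B12 (11.7%).

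For B12 in non-diabetic kidneys 0 of 8 and 0% of all genes passed edgeR's adjusted threshold. At an unadjusted p below 0.05 there were 2, Ppara and Cpt1a (7.62% of all genes), and these 2 also had groups without overlap, higher with B12 (4.81%). The fold rule gave 0 (3.19%) and DESeq2 gave 0 (0.0236%). For B12 in diabetic kidneys edgeR's adjusted threshold again gave 0 of 8 and 0% of all genes, and the unadjusted one gave 3, Ppara, Cpt1a and Pdk4, all lower with B12 (13.6%). Pdk4 alone met the fold rule (5.58%), and Ppara alone passed in DESeq2 (2.68%) and had groups without overlap (6.58%). The interaction gave 0 of 8 and 0% of all genes in edgeR, 2 at an unadjusted p below 0.05 (Ppara and Cpt1a; 16.1%), 1 by the fold rule (Ppara; 9.15%) and 2 in DESeq2 (Ppara and Cpt1a; 3.63%). The direction was downward for 7 of 8 genes in B12-treated diabetic against untreated diabetic kidneys, with a median log2 fold change of −0.116 beside 0 over all genes, and upward for 6 of 8 in untreated diabetic against non-diabetic kidneys (median 0.221 beside −0.003). The first tally counts Cyp4a10 (−4e-04) as lower and Acot1 (6e-04) as higher, which are too small to give a direction. Of all tested genes 49.9% were higher in the first comparison and 49.3% in the second.

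Over the 16 libraries 2 patterns stood out among the 8 genes. Ppara and Cpt1a varied together, with Pearson's r of 0.85 for log2 CPM, counts scaled to library size (Spearman's rho 0.78) and 0.615 for deviations from the group means. Cyp4a10, Cyp4a14 and Acot1 varied together more closely, with r between 0.92 and 0.96 and between 0.90 and 0.95 for the deviations. Ppara had r of −0.22, −0.19 and −0.22 with those 3 genes, which are weak. Pdk4 stood nearer to the second pattern (r 0.46 to 0.54), and Acadm and Ehhadh correlated with each other at 0.47. For deviations from the group means, all 3 correlated with Cyp4a10, Cyp4a14 and Acot1. These r were 0.58 to 0.63 for Pdk4, 0.50 to 0.63 for Acadm and 0.48 to 0.61 for Ehhadh, near that of Ppara with Cpt1a. These are descriptions over 16 libraries that share their normalization, and the 2 Cyp4a genes share sequence.

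**Figure D3:**
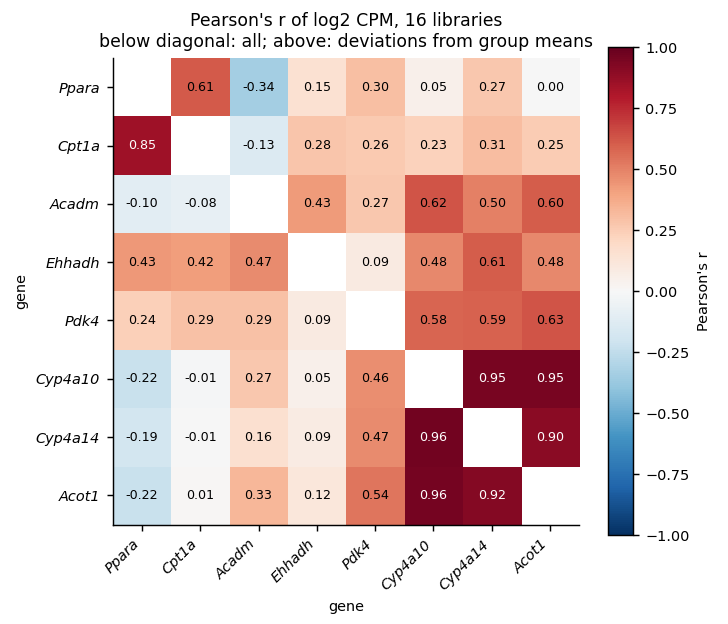
Pearson's r of log2 CPM between the 8 genes over 16 libraries, with values from all libraries below the diagonal and values from deviations from the group means above it. The block of Cyp4a10, Cyp4a14 and Acot1 holds the highest values, 0.92 to 0.96 below the diagonal, and Ppara with Cpt1a has 0.85.

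Vnn1, Acot3, Cyp4a31 and Cyp4a32, further PPARalpha targets by the lists, were highest of their groups in the same libraries as Cyp4a14, that is ND_C 4, ND_B12 4, D_C 2 and D_B12 3. Not all listed targets did so. Within ND_C, Acot2 was highest in ND_C 1 and Angptl4 in ND_C 3. Fabp1 was highest of its groups in ND_C 3, ND_B12 3 and D_C 4. The order of libraries was not read for every listed target. Cyp4a12a, a further omega-hydroxylase of the Cyp4a cluster on chromosome 4 (115156243 to 115190012), ran opposite to Cyp4a14 (r = −0.91), and had its lowest value in D_C 2 (2031 normalized counts) and its highest in ND_C 2 (19069). Diabetic against non-diabetic kidneys gave −0.97 without B12 (SE 0.43, edgeR adjusted p = 0.238) and −1.20 with B12 (SE 0.433, adjusted p = 0.168).

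**Figure D4:**
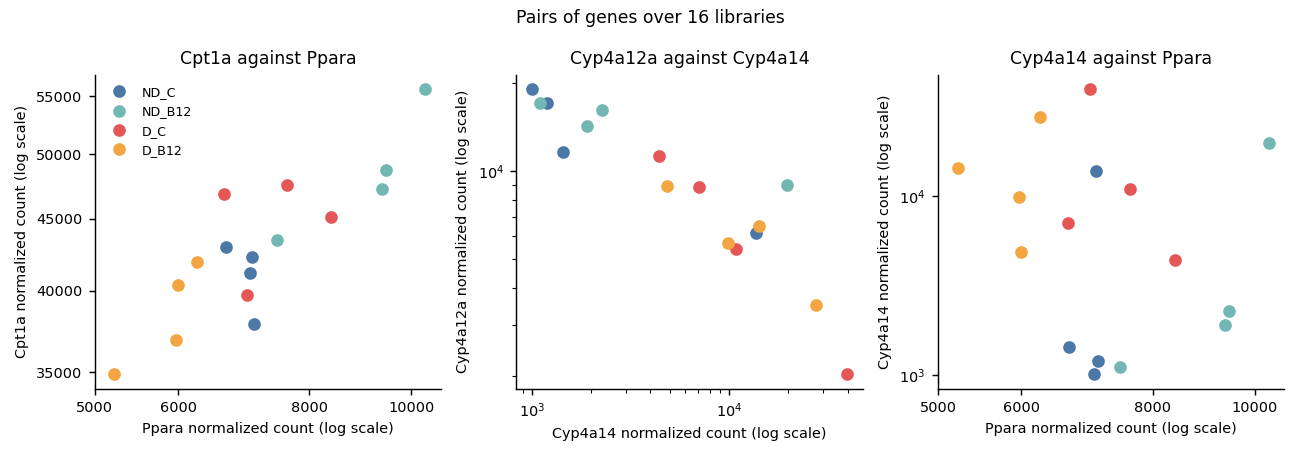
Normalized counts (log axes) of Cpt1a against Ppara, Cyp4a12a against Cyp4a14 and Cyp4a14 against Ppara in 16 libraries, coloured by group. The first pair rises together (r = 0.85), Cyp4a12a is low where Cyp4a14 is high (r = −0.91), and the third pair shows no such relation (r = −0.19).

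Other genes moved beside these patterns. Of 12 clock genes measured, 8 correlated positively with Ppara (Dbp, Tef, Hlf, Nr1d2, Per1, Per2, Per3 and Ciart, r 0.44 to 0.76) and 4 negatively (Bmal1, Npas2, Nr1d1 and Nfil3, r −0.74 to −0.49). Dbp, a PAR bZIP output of the clock, had 2082, 4180, 2772 and 6509 normalized counts in ND_C, 2148, 6318, 6116 and 6988 in ND_B12, 6182, 4684, 7567 and 5105 in D_C, and 1788, 2092, 2903 and 3159 in D_B12. ND_B12 1, the lowest ND_B12 library for Ppara, was also the lowest of its group for Dbp and the highest for Bmal1 (1063 against 226 to 254). It was among the libraries that matched the study's tabulated ND_C means. The summed clock genes ranged from 51614 to 66709 in ND_C, from 57714 to 80693 in ND_B12, from 70407 to 74091 in D_C and from 50968 to 60934 in D_B12, so that ND_B12 and D_B12 overlapped. These directions too rest on the labels. The part of the clock genes in the Ppara differences was not tested. The study places the harvest in a single window of Zeitgeber time a few hours long, and the time of each mouse within it was not given in the sources used here. Summed B cell and plasma cell markers had r of −0.76 with Cyp4a14 and ranged from 964 to 3631 in ND_C, from 805 to 2643 in ND_B12, from 327 to 962 in D_C and from 362 to 446 in D_B12. Summed macrophage markers had r of −0.66 with it and ranged from 5951 to 6945 in ND_C, from 4157 to 6534 in ND_B12, from 4773 to 5901 in D_C and from 4200 to 4481 in D_B12. Adipocyte markers had r of 0.21 with Ppara and −0.02 with Cyp4a14. Summed proximal tubule markers had r of 0.58 with Ppara over all libraries and 0.191 for deviations from the group means. They were 1149456 to 1207482 in D_B12 and 1276806 to 1401705 in ND_B12, without overlap. In ND_C they were 1230884 to 1305287 and in D_C 1105196 to 1331610. Their median was lower in D_C (1108785) than in D_B12 (1169157), whereas Ppara was higher in D_C. The part of these cell types was not tested.

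Dates in the library names, whose meaning the labels do not give, mostly belong to 1 group each. Of 10 dates, 2 hold libraries of 2 groups, and none holds both D_C and D_B12. On the date shared by ND_C 4 and ND_B12 1, Ppara had 7056 and 7451 normalized counts, and on that shared by ND_B12 2, 3 and 4 and D_C 1 it had 9374, 9452, 10312 and 8392. With the date, as a number of days, as a covariate the difference between B12-treated groups was −0.73 and no longer passed (edgeR adjusted p = 0.13), and the interactions of Ppara and Cpt1a did (−0.78, adjusted p = 0.0239, and −0.63, adjusted p = 0.0205). With that covariate 29 of all tested genes passed between B12-treated groups and 753 for the interaction, beside 209 and 0 without it. Between untreated groups 2 passed with it, beside 423 without it.

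Beyond the 8 genes, 121 of 124 listed genes of the pathway were tested. With diabetes 3 of them rose and 1 fell in untreated kidneys (3.31%, beside 1.66% of all tested genes), and 0 rose and 4 fell in B12-treated kidneys (3.31%, beside 0.823%). All of these calls were lost on single omissions. Between untreated groups 0 of all tested genes passed without ND_C 2 or without D_C 4. Between B12-treated groups 0 passed without ND_B12 2, D_B12 1, D_B12 2 or D_B12 3. The same holds for the calls of marker genes given below. B12 gave 0 calls by edgeR in either genotype, with 6.61% of the 121 genes in non-diabetic and 11.6% in diabetic kidneys at an unadjusted p below 0.05, and the interaction gave 0 with 13.2%. Over all tested genes these shares were higher, at 7.62%, 13.6% and 16.1%. The medians over the 121 genes were 0.051, −0.045, 0.060, −0.059 and −0.103 for the comparisons in the same order, beside medians within 0.003 of 0 over all tested genes. With B12, 90 of 121 were higher in non-diabetic kidneys and 88 of 121 lower in diabetic kidneys, comparisons that each share their groups with others here. Of all tested genes 50.4% and 49.9% were higher in these comparisons.

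Among the 23 genes of mitochondrial beta-oxidation, Cpt1b, the muscle-type partner of Cpt1a, rose with diabetes in untreated kidneys from 1978 ± 170 to 2750 ± 231 normalized counts (SD, n = 4 each; log2 fold change 0.48, SE 0.0947, edgeR adjusted p = 0.034). In B12-treated kidneys Acad10, an acyl-CoA dehydrogenase family member, fell by 0.43 on the log2 scale (SE 0.0712, adjusted p = 0.0282) and Echs1, the short-chain enoyl-CoA hydratase, fell by 0.27 (SE 0.0568, adjusted p = 0.043). In diabetic kidneys with B12 against control 22 of the 23 genes were lower, at a median of −0.09, and none passed. Of all tested genes 49.9% were higher in that comparison, at a median of 0. The 23 genes were measured in the same libraries, so that they are not separate results. No gene of 19 in peroxisomal beta-oxidation passed a comparison in edgeR. The 27 tested PPARalpha target genes gave no call in any comparison, and their medians were 0.19 and −0.01 for diabetes without and with B12 and 0.08 and −0.08 for B12 without and with diabetes. Fgf21, a hormone target, was at or near 0 in all libraries and not tested.

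Of 9 genes of ketone body metabolism, Acat1, the mitochondrial thiolase that acts in ketone synthesis and use, fell with diabetes both without B12 (by 0.31, SE 0.0748, edgeR adjusted p = 0.0474) and with B12 (by 0.34, SE 0.0748, adjusted p = 0.0473). Oxct1, the enzyme that returns ketone bodies to acetoacetyl-CoA, gave −0.49 (SE 0.123, adjusted p = 0.0526) and −0.53 (SE 0.123, adjusted p = 0.0537). Slc16a1, a monocarboxylate and ketone carrier, gave 1.26 between B12-treated groups (SE 0.322, adjusted p = 0.0718). Among 13 tested omega-hydroxylase genes Cyp4v3 was higher in D_C than in ND_C (0.57, SE 0.127, edgeR adjusted p = 0.0408), and among 12 acyl-CoA thioesterases none passed. Pdk1, a sister kinase of Pdk4, rose with diabetes in untreated kidneys from 2875 ± 383 to 4488 ± 857 (log2 fold change 0.64, SE 0.152, adjusted p = 0.0468), 1 of 11 genes of pyruvate dehydrogenase control. Pdp1, the opposing phosphatase, gave −0.62 for B12 in diabetic kidneys (SE 0.126, adjusted p = 0.0783).

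Of 12 genes of fatty acid uptake and binding, Slc27a2, a very long-chain acyl-CoA synthetase and transporter of the proximal tubule, was lower in D_B12 (196620 ± 7260) than in ND_B12 (265950 ± 13800), or −0.44 in log2 terms (SE 0.0909, edgeR adjusted p = 0.0418). Fabp1, a fatty acid binding protein, was near the lower limit of detection, with 8.9 to 75.9 normalized counts. Of 17 regulators that act with PPARalpha none passed a comparison. The nearest were Ppard, the delta receptor of the family, at 0.65 for B12 in diabetic kidneys (SE 0.146, adjusted p = 0.0907), and Nrip1, a corepressor, at −0.31 between B12-treated groups (adjusted p = 0.0632). Among the marker lists, Slc22a8 of the proximal tubule (−0.70, SE 0.152, adjusted p = 0.0437) passed between B12-treated groups, and Jchain of plasma cells passed between untreated groups (−1.96, SE 0.461, adjusted p = 0.0468) and between B12-treated groups (−2.23, SE 0.472, adjusted p = 0.0423).

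**Figure D5:**
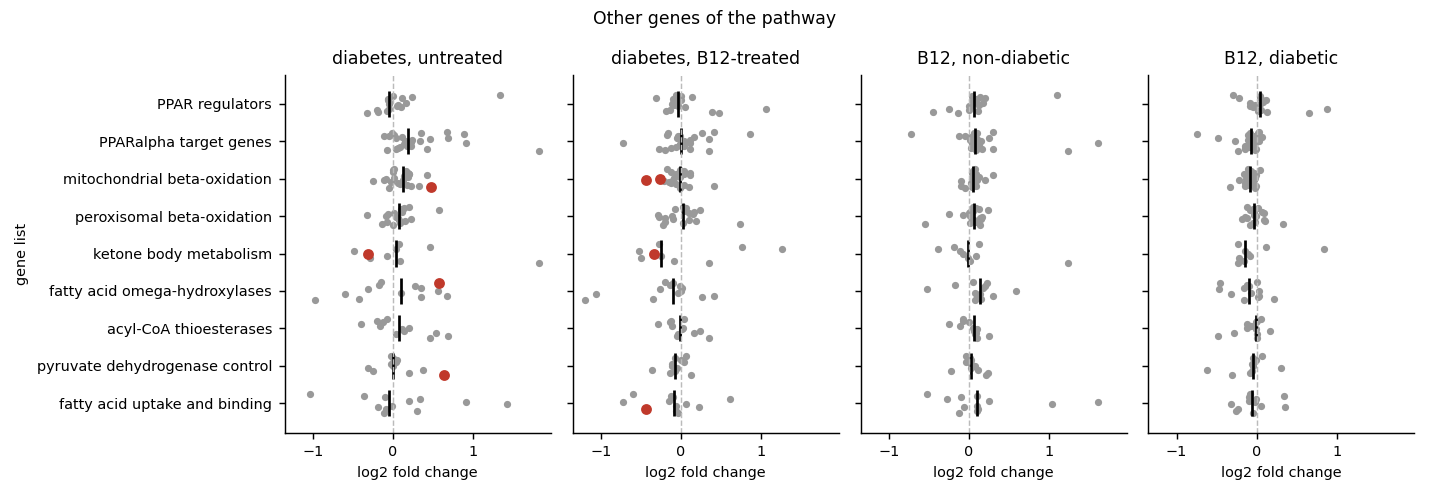
Log2 fold changes of the other tested pathway genes by list in the 4 comparisons; grey points are single genes, red points have an edgeR adjusted p below 0.05 and the black bars are list medians. Red points are Cpt1b, Acat1, Cyp4v3 and Pdk1 for diabetes in untreated kidneys and Acad10, Echs1, Acat1 and Slc27a2 in B12-treated kidneys, with none for B12.

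Genes most like each member were sought over the 16 libraries by Pearson's r among 16069 other genes with a mean of at least 1 CPM. Ppara was most like Lima1 (0.94), Hnrnpul1 (0.93) and Igsf8 (0.91). Cpt1a was most like Ctdsp2 (0.95), Calcoco1 (0.94) and Ctdsp2-ps (0.94), where Ctdsp2-ps is a pseudogene that may share reads with Ctdsp2. Cyp4a10 was most like Cyp4a32 (0.99), Cyp4a31 (0.97) and Sesn3 (0.96), Cyp4a14 had Cyp4a32 (0.95) and Mgll (0.94) among its 3 nearest, and Acot1 was most like Ppp2r5c (0.95), Hsdl2 (0.94) and Cyp4a31 (0.94). Likeness was lower for Pdk4, with Tor3a (0.81), Acadvl (0.79) and Atf5 (0.79), and for the runners-up of Ehhadh, which was closest to Ggcx (0.91) and then to Galnt7 (0.78) and Slc46a1 (0.78). Acadm was closest to Htatip2 (0.93), Cyb561 (0.90) and Plpp2 (0.87).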

How the data were processed

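Total RNA of 16 mouse kidneys was sequenced as paired-end reads from Watchmaker libraries. The authors aligned the reads with STAR to GRCm39 (GENCODE vM35), with strand assigned from intron motifs, and deposited estimated counts per gene and per transcript from StringTie and prepDE, which are whole numbers. The submitters' processing notes also name bcl2fastq 2.20.0, DESeq2 and limma.

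Groups came from the sample titles, and columns were assigned by the ending of the library name in each sample's description. Genes with fewer than 100 counts in total were left out. The main test was edgeR 4.0.16 (R 4.3.3), glmQLFit and glmQLFTest with TMM, fitted on all 16 libraries with 1 mean per group, two-sided, with Benjamini-Hochberg adjustment over 25408 genes at 0.05. Normalized counts were counts divided by DESeq2 1.42.0 size factors, and log2 CPM used a prior count of 2. Lengths and positions came from GENCODE vM39.

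The members and the gene lists were chosen with earlier results of these data known. The 8 members are always named. From each other list, genes with an adjusted p below 0.05 in any comparison are named, and beside these at most the 3 with the smallest p in each of the 4 comparisons, and the 3 genes most like each member. Vnn1, Angptl4, Cyp4a31, Dbp, Bmal1 and Fgf21 were named after their values were seen.

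Alternatives were DESeq2, upper-quartile scaling, no filter beyond 1 count, filterByExpr, days since the earliest date in the library names as a covariate, a block for the replicate number, the compared groups alone, each library left out, near-identical copies added together, and calling at an unadjusted p below 0.05 with a log2 fold change of at least 0.5. Leaving out ND_B12 4 and D_C 1, or the 3 libraries richest in adipocyte markers, was chosen after seeing the data. The tests were first tested on simulated counts with 200 changed genes among 25233 and the same spread for every gene. Between B12-treated groups edgeR recovered 188 of the 200, and 2.59% of its calls at 0.05 were false. DESeq2 recovered 183, and 11.2% of its calls at the same threshold were false, which bears on its calls given here. Some genes of the lists that the rule names are not reported here.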

Additional observations from a re-analysis of the deposited data

Results flagged for a closer look

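A library far from the other 3 of its group was found in 7 of the 32 sets formed by the 8 genes and 4 groups. Chance gives about 1 in 20 only for independent sets of normally distributed values. The sets here are not independent, since Cyp4a10 and Cyp4a14 had r of 0.96 and gave 4 of the 7. No excess over chance can therefore be read from the count. In 4 of the 7 sets the far library was the high one of a group labelled non-diabetic, ND_C 4 or ND_B12 4. The diabetes status of ND_B12 4 is in doubt, since it matched the study's means of diabetic kidneys with B12. Cyp4a14 had 13687 normalized counts in ND_C 4 and 19707 in ND_B12 4, and Cyp4a10 had 30836 and 46551 in the same libraries, which were also the highest of their groups for Acot1. The other 3 were Ppara in ND_C 1 (6663 normalized counts), the lowest of a group whose highest was 7087, Acadm in ND_B12 1 (50319), the highest of its group, and Pdk4 in ND_C 2 (2560), the lowest of its group.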

How the results depend on the processing

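Over the settings other than single omissions, 361 of the members' log2 fold changes kept direction and side of the threshold, 1 was weaker, 8 were stronger and 22 turned, and over single omissions 595 kept them, 5 were weaker, 5 were stronger and 35 turned. The 57 that turned all had unadjusted p-values of at least 0.152 in the fit reported. Ppara between B12-treated groups kept its direction throughout, with edgeR or DESeq2 adjusted p-values from 1.89e-07 in DESeq2 to 0.13 with the date. The causes were not tested. Members called by DESeq2 were 2 between B12-treated groups, 1 for B12 in diabetic kidneys and 2 for the interaction. With the date they were 0 between B12-treated groups and 2 for the interaction. Of all tested genes 29 and 753 were then called, beside 209 and 0 in the fit reported. Under the rule of unadjusted p and fold, members called were 1 between untreated groups, 1 for B12 in diabetic kidneys and 1 for the interaction. Without ND_B12 4 and D_C 1 there was 1 between untreated groups, where 2127 of all tested genes were called, beside 423 in the fit reported. With 1 library left out, members called ranged from 0 to 2 between B12-treated groups and from 0 to 1 for the interaction, and were 0 in the others. Calls over all tested genes then ranged from 0 to 441 between B12-treated groups and from 0 to 266 for the interaction. Between untreated groups they ranged from 0, without ND_C 2 or without D_C 4, to 1552 without D_C 1.

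The replicate numbers did not pair the libraries. Over 24 same-numbered pairs the correlation of deviations ran from −0.344 to 0.28, and 3 of 16 libraries correlated best with their own number. With the replicate block 1 member was called for the interaction, Ppara at −0.74 (edgeR adjusted p = 0.0395), and 147 of all tested genes were. That fit gave 0.1032 for Cyp4a10 and 0.208 for Cyp4a14 for B12 in diabetic kidneys. The compared groups alone give no interaction.

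Turned log2 fold changes for B12 in diabetic kidneys were, for Acot1, −0.0019 in DESeq2, −0.0055 with no filter, −0.0728 with the date, −5e-04 with copies added, −0.1249 without ND_B12 4 and D_C 1 and −0.0706 without the libraries richest in adipocyte markers. For Cyp4a10 they were 0.0267 with upper-quartile scaling, 0.0037 with the groups alone and 0.0093 with copies added. With the date, Cpt1a between untreated groups was −0.0469 and the interaction of Acadm −0.0484, and the latter was −0.0215 without the libraries richest in adipocyte markers. Without ND_B12 4 and D_C 1, Acadm between untreated groups was 0.0104, Pdk4 between B12-treated groups 0.0822, B12 in non-diabetic kidneys −0.2041 for Cyp4a10, −1.2975 for Cyp4a14 and −0.1269 for Acot1, and the interaction −0.0522 for Acadm, 0.8646 for Cyp4a14 and 0.0019 for Acot1.

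With 1 library left out, values ranged between untreated groups from −0.1412 to 0.0012 for Acadm and from −0.2168 to 0.0144 for Ehhadh. Between B12-treated groups they ranged from −0.0591 to 0.0023 for Acadm and from −0.262 to 0.0786 for Pdk4. For B12 in non-diabetic kidneys they ranged from −0.0845 to 0.1469 for Ehhadh, −0.2649 to 0.0756 for Pdk4, −0.2031 to 0.7405 for Cyp4a10, −1.2999 to 2.3783 for Cyp4a14 and −0.125 to 0.1972 for Acot1. For B12 in diabetic kidneys they ranged from −0.2423 to 0.4356 for Cyp4a10, −0.6827 to 0.9419 for Cyp4a14 and −0.1122 to 0.1246 for Acot1. For the interaction they ranged from −0.0251 to 0.1172 for Acadm, −0.7407 to 0.2027 for Cyp4a10, −2.5028 to 1.1754 for Cyp4a14 and −0.1964 to 0.1256 for Acot1.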
